A study of Homo sapiens with 8 samples.

Results

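The 5 guide arms of the miR-99/100 and miR-125 families, hsa-miR-99a-5p, hsa-miR-99b-5p, hsa-miR-100-5p, hsa-miR-125a-5p and hsa-miR-125b-5p (the human prefix is left out from here on), were followed across drug treatments of the prostate cancer cell line PC-3. They were picked by name out of the 1887 human miRNAs on the array. The cells received DMSO (the solvent), 60 µM luteolin, a plant flavonoid, 60 µM gefitinib, an inhibitor of the kinase of the epidermal growth factor receptor, or both drugs at 60 µM each, for 24 h. The labels name no genetic change in any group. Each treatment had 2 one-colour Agilent miRNA arrays of separate samples that the labels call biological replicates. All 8 arrays lay on 1 slide that was read in 1 scan, and nothing in the labels says how the cultures of a pair were separated, so the p-values measure only the spread between these samples.

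In a miRNA hairpin the 5′ and 3′ strands form a duplex, and the strand that usually enters the silencing complex is called the guide arm, while the other is the passenger arm. The guide finds target RNAs mainly through its seed, bases 2 to 8 from its 5′ end. The miR-99/100 family is known for repressing MTOR, the growth-controlling kinase, and IGF1R. The miR-125 family is known for repressing ERBB2 and ERBB3, which are receptors related to the target of gefitinib. Both families sit together with let-7 genes in clusters that were duplicated during evolution.

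The mature sequences show which members the array has to tell apart. They are given from RefSeq in build GRCh38.p14, which matched 5 of 5 members, in lower case from 5′ to 3′ with the seed in capitals.
miR-99a-5p: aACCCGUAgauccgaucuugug
miR-100-5p: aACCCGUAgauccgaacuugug
miR-99b-5p: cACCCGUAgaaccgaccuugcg
miR-125b-5p: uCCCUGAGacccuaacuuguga
miR-125a-5p: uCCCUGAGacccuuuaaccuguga
The 5 guides carry only 2 different seeds. The first 3 share a seed, and miR-99a-5p differs from miR-100-5p by the single substitution U16A (the base of miR-99a-5p, its position from the 5′ end, then the base of miR-100-5p). From miR-99a-5p to miR-99b-5p there are 4 substitutions, A1C, U11A, U16C and U21C. miR-125b-5p and miR-125a-5p share their seed and their first 13 bases, and are 22 and 24 bases long. Within RefSeq, miR-4319 also has the miR-125 seed, and it was detected on 0 of the 8 arrays. The sequences of the array's probes were not used here, so cross-hybridisation between such close members was not tested.

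The members come from 6 genes in 3 clusters. On chromosome 21, the guide of MIR99A (chr21:16539101-16539122, plus strand) lies 0.715 kb from that of MIRLET7C and 51.1 kb from that of MIR125B2 (chr21:16590253-16590274). MIR99A and MIRLET7C lie within the host gene MIR99AHG, and whether MIR125B2 does too was not determined here. On chromosome 11, the guide of MIR100 (chr11:122152275-122152296, minus strand) lies 5.68 kb from that of MIRLET7A2 and 52.4 kb from that of MIR125B1 (chr11:122099809-122099830), all within MIR100HG. On chromosome 19, the guides of MIR99B (chr19:51692618-51692639, plus strand), MIRLET7E and MIR125A (chr19:51693268-51693291) lie within 0.628 kb of one another, in the span of SPACA6 and SPACA6-AS1. Since MIR125B1 and MIR125B2 give the same guide, its signal cannot be divided between chromosomes 11 and 21.

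All 5 guides gave a clear signal, which does not show that each was read apart from its close relatives. The scanner software detected each of them on 8 of 8 arrays, and at least 29 of the 30 spots of each miRNA were well above background on every array. The scanner's own error was between 7.15% and 9.84% of the signal. The signals given here are the software's total signal per miRNA, in linear intensity units, scaled so that the 75th percentile of the 365 miRNAs detected on all arrays is the same on each array. Signals of different miRNAs were not compared in level, since each has its own probes.

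Of the 8 arrays as a whole, between 395 and 481 miRNAs were detected on each. Epithelial miRNAs were part of the profile: miR-200a-3p, miR-200b-3p and miR-429 were detected on 8 arrays. miR-205-5p was detected on 6, at a scaled signal of at most 5.37, and miR-200c-3p and miR-141-3p were detected on none. The summed scaled signal of the 6 epithelial markers ran from 221 to 285 over the arrays. Of 14 markers of blood, smooth muscle, muscle, liver and neurons, 13 were detected on no array, and miR-142-3p was detected on 1. The median log2 difference from DMSO over the 480 miRNAs tested was not 0: it was -0.10 with luteolin, -0.10 with gefitinib and -0.16 with both drugs. With other scalings of the arrays the gefitinib median moved as high as 0.40, with spike-in probes as the reference, and that of both drugs as high as 1.1996, with the 75th percentile over all miRNAs, which on 5 arrays is the value for an undetected miRNA.

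To ask whether the drugs changed the miR-99/100 guides, their signal was set side by side on every array. miR-100-5p gave 2983 and 4054 in DMSO, 3120 and 4217 in luteolin, 3176 and 3373 in gefitinib, and 3255 and 3317 in luteolin plus gefitinib. The drug arrays lay inside or close to the range of the DMSO arrays, and no 2 neighbouring groups in the order of the means were apart. miR-99a-5p, its closest relative in sequence, gave 381 and 528 in DMSO, 361 and 505 in luteolin, 385.8 and 386.0 in gefitinib, and 399 and 396 in luteolin plus gefitinib. Here too every drug group overlapped the DMSO group, although both arrays of gefitinib alone lay slightly under both arrays of the combination. miR-99b-5p gave 111 and 126 in DMSO, 115 and 122 in luteolin, 98.2 and 102 in gefitinib, and 113 and 117 in luteolin plus gefitinib. Gefitinib alone was the lowest group for this guide with this scaling, below all 6 other arrays, while with no scaling both its arrays lay above both DMSO arrays. Of all miRNAs tested, 36.0% lay below DMSO with gefitinib on this scale, and 49.4% lay above it with no scaling.

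The miR-125 guides differed from one another. miR-125b-5p gave 2186 and 2989 in DMSO, 2424 and 3239 in luteolin, 2341 and 2431 in gefitinib, and 2366 and 2640 in luteolin plus gefitinib. All its groups overlapped with DMSO, and luteolin had the highest mean, 2832 ± 576 (SD, n = 2), against 2587 ± 568 in DMSO. miR-125a-5p gave 109 and 143.9 in DMSO, 89.9 and 106 in luteolin, 109 and 110 in gefitinib, and 95.4 and 103 in luteolin plus gefitinib. With this scaling, all 4 arrays with luteolin lay below all 4 arrays without it. The group means ran from 98.2 ± 11.7 in luteolin and 99.1 ± 5.23 in the combination to 110 ± 1.26 in gefitinib and 126 ± 24.6 in DMSO (SD, n = 2).

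**Figure D1:**
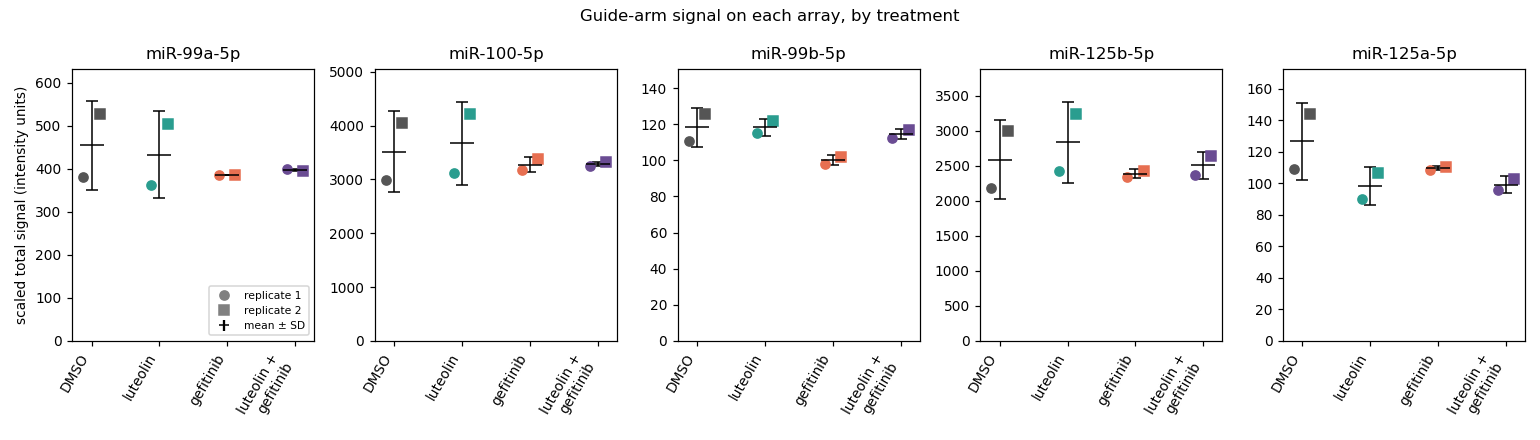
Scaled total signal (linear intensity units, axis from 0) of the 5 guide arms on each of the 8 arrays, by treatment; circles are replicate 1, squares replicate 2, and the bars are the mean ± SD of 2 arrays. The DMSO and luteolin pairs of miR-99a-5p, miR-100-5p and miR-125b-5p are spread more widely than the pairs that received gefitinib, and for miR-125a-5p the 4 arrays with luteolin lie between 89.9 and 106, below the 4 without it on this scale.

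The spread within a treatment was large beside these differences. In the DMSO group the higher array exceeded the lower by 1.14-fold for miR-99b-5p and by 1.32-fold to 1.38-fold for the other 4 guides. In the luteolin group the same gap was 1.06-fold for miR-99b-5p, 1.18-fold for miR-125a-5p and up to 1.40-fold for miR-99a-5p. In the groups with gefitinib no guide differed by more than 1.12-fold between its arrays. In both DMSO and luteolin the higher array was the one numbered 2 for all 5 guides, whereas over the 365 miRNAs detected everywhere it was the higher one for 56.7% in DMSO and 49.0% in luteolin. It was also the higher array for all 5 guides in gefitinib (65.5% of all miRNAs) and for all but miR-99a-5p in luteolin plus gefitinib (63.6% of all), by smaller gaps.

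The fit of all 480 miRNAs (limma, Benjamini-Hochberg adjusted over the 480) called none of the 5 guides changed from DMSO. For luteolin the log2 differences ran from -0.36 for miR-125a-5p to 0.13 for miR-125b-5p, with a median of 0.00 and a lowest adjusted p of 0.660, and 2.08% of all miRNAs tested were called. For gefitinib they ran from -0.24 for miR-99b-5p to -0.09 for miR-100-5p, with a median of -0.20 and a lowest adjusted p of 0.388, against 12.1% of all miRNAs called. For luteolin plus gefitinib they ran from -0.34 for miR-125a-5p to -0.03 for miR-125b-5p, with a median of -0.08 and a lowest adjusted p of 0.328, again against 12.1% of all miRNAs. At an unadjusted p under 0.05 the count of guides was also 0 in each of the 3 comparisons, where 8.54%, 23.8% and 25.8% of all miRNAs passed. The methods' t-test at an unadjusted p under 0.05 gave 0 guides as well, against 26, 118 and 86 of the 480 miRNAs. The direction of the gefitinib differences depended on the scaling: all 5 guides were above DMSO with no scaling, with the 75th percentile over all miRNAs, and with either kind of control probe as the reference. The sizes also rested on DMSO replicate 2: without it, miR-125a-5p moved to -0.16 with luteolin and -0.14 with both drugs, and miR-99b-5p to -0.14 with gefitinib. The absence of a call does not show that the levels were equal: the 95% confidence intervals of these 15 differences reached from 0.569-fold to 1.61-fold of DMSO.

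**Figure D2:**
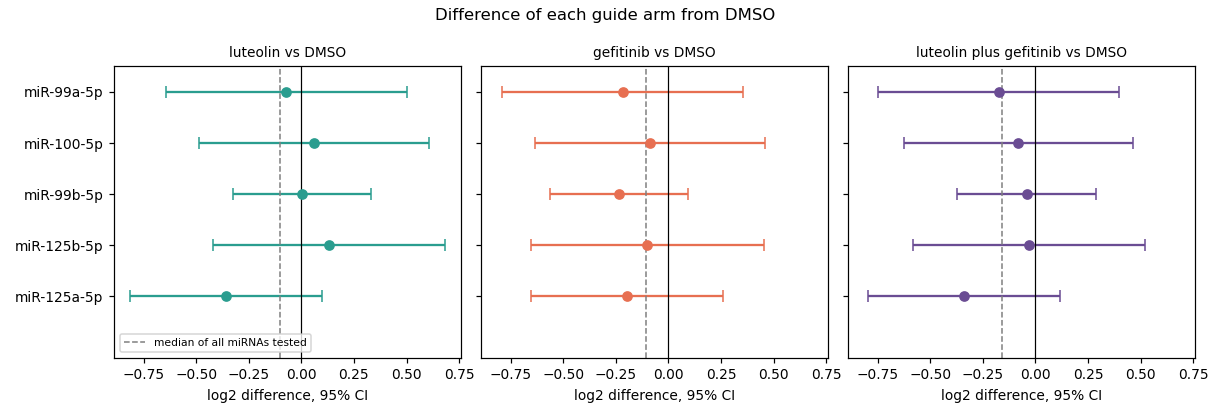
Log2 difference of each guide arm from DMSO with its 95% confidence interval from limma, in 1 panel per drug group; the dashed line is the median of the 480 miRNAs tested. Every interval spans 0, and the lowest point is miR-125a-5p with luteolin at -0.36.

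The comparisons between drug groups gave the same count. Of the 5 guides, 0 were called for luteolin plus gefitinib against luteolin, where 1.88% of all miRNAs were called, for the combination against gefitinib (4.58%), for gefitinib against luteolin (5.0%) and for the interaction of the drugs, which sets the combination against the sum of the single effects on the log2 scale (3.33%). The count was also 0 for the mean effect of gefitinib over 4 against 4 arrays (16.7% of all miRNAs called) and for that of luteolin (6.46%). At an unadjusted p under 0.05 limma again gave 0 guides in each of these 6, where between 10.2% and 26.7% of all miRNAs passed. The lowest unadjusted p of a guide was 0.105, for the effect of luteolin on miR-125a-5p (log2 difference -0.25, adjusted p = 0.479). The methods' t-test gave 2 guides at an unadjusted p under 0.05 for the combination against gefitinib (86 of the 480 miRNAs). It gave 1 for gefitinib against luteolin (68 of the 480). After adjustment it gave 0 guides, against 19 and 2 of the 480 miRNAs. With the change of over 2-fold that the methods also ask for it gave 0 guides as well. In 1 of the alternatives, normexp background correction with quantile normalization, miR-99b-5p was called for gefitinib (log2 difference -0.19, adjusted p = 0.0240) and miR-125a-5p for luteolin plus gefitinib (-0.36, adjusted p = 0.0496). The same setting called miR-99b-5p for gefitinib against luteolin (-0.19, adjusted p = 0.0318) and for the mean effect of gefitinib (-0.15, adjusted p = 0.0108), so these counts became 1. The percentages of all miRNAs called above belong to the main fit, and those under this setting are not given here.

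**Figure D3:**
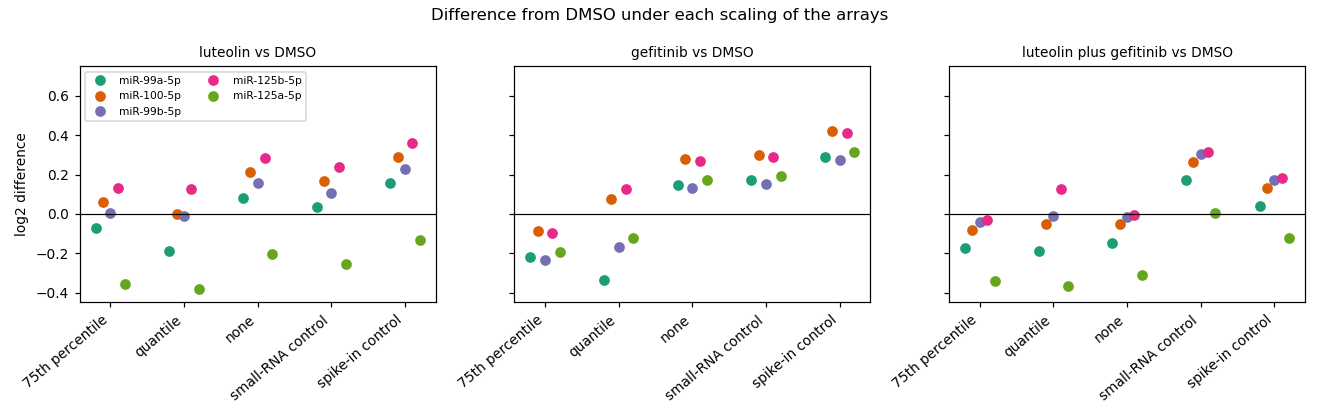
Log2 difference from DMSO of each guide arm under 5 ways of setting the arrays on a common scale, in 1 panel per drug group. The 5 gefitinib points lie below 0 with the 75th percentile and above 0 with no scaling and with both kinds of control probe, while miR-125a-5p stays the lowest point in both groups with luteolin.

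Whether arrays overlap was counted without the fit, but depends on the scaling. Against DMSO and with the main scaling, the arrays did not overlap for 1 of 5 guides with luteolin (miR-125a-5p, lower), as for 26.9% of all miRNAs, for 1 of 5 with gefitinib (miR-99b-5p, lower), where all miRNAs gave 57.5%, and for 1 of 5 with both drugs (miR-125a-5p, lower), where all miRNAs gave 52.9%. With the arrays of the same drug joined, the 4 luteolin arrays lay apart from the other 4 for miR-125a-5p alone among the guides, which 4.17% of all miRNAs also did, and the 4 gefitinib arrays lay apart for 0 guides, against 17.1% of all miRNAs.

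The separations were recounted under 8 other scalings or signal summaries, after seeing the data. The 4 luteolin arrays stayed below the other 4 for miR-125a-5p in 1 of the 8, normexp with quantile normalization, and overlapped them in 7. Of all miRNAs, 2.5% lay below the other 4 arrays in that setting. For miR-125a-5p luteolin stayed below DMSO in 4 and overlapped it in 4, and the same counts held for both drugs. In the settings that kept it below, 9.38% to 19.4% of all miRNAs lay below DMSO with luteolin and 25.0% to 40.2% with both drugs. For miR-99b-5p the gefitinib arrays lay below DMSO in 4, overlapped it in 2, and lay above both DMSO arrays in 2, with no scaling and with small-RNA control probes. In those 4 settings 30.2% to 39.6% of all miRNAs lay below DMSO, and in those 2 settings 49.4% and 51.7% lay above it. Other settings also separated guides that overlapped with the main scaling. The 4 gefitinib arrays lay below the other 4 for miR-99b-5p in 3 of the 8, as did 10.4% to 11.9% of all miRNAs there. With gefitinib, miR-99a-5p lay below DMSO in 3, miR-125a-5p below it in 3 and above it in 1, and miR-100-5p and miR-125b-5p above it in 2 each. All of these fell in the settings that separated miR-99b-5p in the same direction, whose shares of all miRNAs are given above. With both drugs, miR-99b-5p lay below DMSO in 3 and above it in 1, miR-99a-5p below it in 1, and miR-100-5p and miR-125b-5p above it in 1 each. With luteolin, miR-99b-5p lay above DMSO in 2 and miR-125b-5p in 1, where 16.7% to 21.7% of all miRNAs also did.

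Ratios between guides on the same array are free of any scaling by 1 factor per array, though not of quantile normalization. They were looked at after the values had been seen, so they are given without a test. The log2 ratio of miR-125b-5p to miR-125a-5p, which share their seed, relative to its DMSO mean was -0.03 and 0.03 in DMSO, 0.40 and 0.58 in luteolin, 0.08 and 0.11 in gefitinib, and 0.28 and 0.33 in luteolin plus gefitinib. The arrays with luteolin were higher than all those without it. The same was true of the ratio of each of the other guides to miR-125a-5p, with mean log2 differences of 0.24 to 0.35 between the 4 arrays with and the 4 without luteolin. These are 4 of the 10 pairs of guides, all with miR-125a-5p, so they describe that 1 guide over again. Of all pairs of miRNAs detected on all arrays, 6.22% did not overlap in this way, and of the 364 pairs that contain miR-125a-5p, 18.1%. The other 6 pairs overlapped, and for the arrays with and without gefitinib all 10 pairs did.

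Each guide was read by 2 different probes of 15 spots, and these allowed a closer look at miR-125a-5p. Its first probe gave scaled signals of 34.5 and 46.6 in DMSO, 23.4 and 26.1 in luteolin, 31.6 and 32.6 in gefitinib, and 24.0 and 25.5 in luteolin plus gefitinib. All 4 luteolin arrays were below all others, and the share of all probes that separate in this way is not given here. Its second probe gave 74.7 and 97.3 in DMSO, 66.5 and 80.4 in luteolin, 77.0 and 77.7 in gefitinib, and 71.4 and 77.3 in luteolin plus gefitinib. For this probe every drug group overlapped the DMSO group, and its lowest value was also a luteolin array.

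The log2 ratio of the first to the second probe of miR-125a-5p differed from DMSO by -0.48 with luteolin (SE 0.05, adjusted p = 0.0434 over the 317 miRNAs with 2 probes, limma) and by -0.50 with luteolin plus gefitinib (SE 0.05, adjusted p = 0.00619). With gefitinib alone it was -0.18 (95% interval -0.31 to -0.05, adjusted p = 0.147). Over 4 against 4 arrays the luteolin effect on the ratio was -0.40 (adjusted p = 0.00485). Such a ratio shows that the probes changed unequally, and does not say that either of them stayed constant. For the other 4 guides the ratio was not called, with sizes of at most 0.13 for luteolin, 0.18 for gefitinib and 0.21 for both drugs. Of all 317 miRNAs, 0.315% were called for luteolin (miR-125a-5p alone), 3.15% for gefitinib, 6.94% for both drugs and 6.94% for the effect of luteolin over 8 arrays. This ratio was chosen after seeing the data. The call for luteolin alone was lost with the replicate number as a block (adjusted p = 0.130) and without each of 7 of the 8 arrays (all but luteolin replicate 1), that for both drugs without luteolin plus gefitinib replicate 2 (adjusted p = 0.0503), and that over 8 arrays was called in all 9 alternatives.

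**Figure D4:**
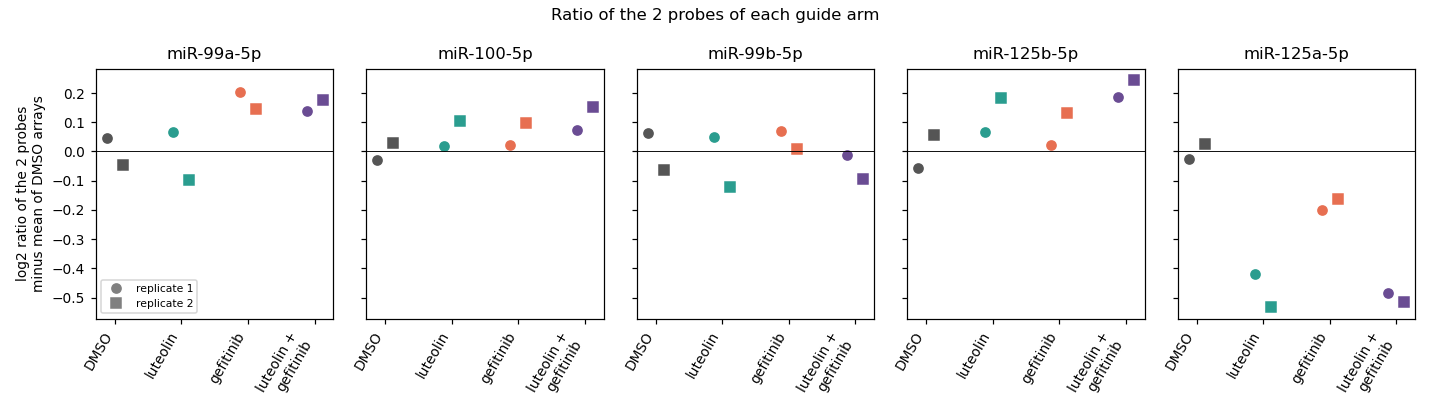
Log2 ratio of the signals of the 2 probes of each guide arm on each array, relative to the mean of the DMSO arrays; circles are replicate 1 and squares replicate 2. The arrays with luteolin stand between -0.53 and -0.42 for miR-125a-5p, while the other 4 guides stay within 0.25 of 0 on every array.

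Fitted 1 probe at a time over all 1087 probes, 0 of the 10 probes of the guides were called for luteolin, where 1.47% of all probes were. For gefitinib 1 was called, the first probe of miR-99b-5p (log2 difference -0.21, adjusted p = 0.0382, 13.2% of all probes), and it was called again for the effect of gefitinib over 8 arrays (-0.13, adjusted p = 0.0415, 18.3% of all). For luteolin plus gefitinib 1 was called, the first probe of miR-125a-5p (-0.70, adjusted p = 0.04997, 16.1% of all), while its second probe was not (-0.20, adjusted p = 0.524). These single-probe fits were also added after seeing the data.

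For miR-99a-5p the total rested almost wholly on 1 probe, which supplied between 97.8% and 98.2% of it on every array. miR-125a-5p drew between 67.6% and 75.5% of its total from its second probe. The other 3 guides drew between 20.4% and 59.4% of their total from their second probe.

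Of the 6 passenger arms of the same hairpins, 3 were detected on 0 arrays, 2 on all 8 and miR-99b-3p on 5. miR-100-3p, the partner strand of miR-100-5p, gave 37.8 and 48.2 in DMSO, 15.2 and 10.0 in luteolin, 19.7 and 12.5 in gefitinib, and 4.06 and 3.76 in luteolin plus gefitinib. It was lower on every drug array than in DMSO, and lowest on both arrays of the combination. In lysed cultures such as these, fewer cells with the miRNA and less of it per cell cannot be told apart. Its log2 difference from DMSO was -3.45 with both drugs (SE 0.31, adjusted p = 0.00234), -1.44 with gefitinib (adjusted p = 0.0406) and -1.79 with luteolin, which was not called (adjusted p = 0.0566). The gefitinib call was lost under 13 of 24 alternatives, and that for both drugs under 3. The luteolin difference was called with the replicate number as a random block (adjusted p = 0.0328).

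The passengers are printed because the contrast between arms turns on them, and none has the seed of a guide. They lie at chr11:122152240-122152261 (minus strand), chr19:51692656-51692677 and chr19:51693306-51693327 (both plus strand), in the same build and with the seed in capitals.
miR-100-3p: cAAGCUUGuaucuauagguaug
miR-99b-3p: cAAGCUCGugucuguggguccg
miR-125a-3p: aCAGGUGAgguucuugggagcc

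The difference between guide and passenger within an array, log2 of the 5p signal minus log2 of the 3p signal, was fitted over 61 hairpins. Where both arms were detected, it does not depend on a scaling by 1 factor per array. An undetected arm was set to the floor of the scaled signal, so on those arrays the difference does move with the scaling. For miR-100 it was above DMSO by 3.37 with luteolin plus gefitinib (SE 0.40, adjusted p = 0.00184, limma), by 1.85 with luteolin (SE 0.40, adjusted p = 0.0278) and by 1.36 with gefitinib (adjusted p = 0.0637, not called). The combination was called in all 12 alternatives. The luteolin call was lost in 7 of the 8 fits that leave out an array (adjusted p from 0.0521 to 0.156; all but the fit without luteolin replicate 1). The gefitinib difference was called with the replicate number as a block (adjusted p = 0.0301) and in the fits without luteolin replicate 1 or without luteolin replicate 2.

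For miR-99b the passenger was faint, with signals of 1.26 and 1.59 in DMSO, 0.755 and undetected in luteolin, 0.636 and 0.720 in gefitinib, and undetected on both arrays of luteolin plus gefitinib, where the floor of the scale was 0.609. It was thus at least 1.99-fold lower with both drugs than in DMSO, taking the lowest detected signal of each array as the upper bound of an undetected one. The fitted arm difference of miR-99b was 1.07 above DMSO with luteolin (adjusted p = 0.0278), 0.83 with gefitinib (adjusted p = 0.0487) and 1.17 with both drugs (adjusted p = 0.00726). The values for luteolin and for both drugs are partly set by the floor, which the fit takes as a measurement. With a floor of 1 they were 0.51, 0.27 and 0.46, and none was called (adjusted p = 0.126, 0.345 and 0.0833). The mean processed signal also ended the luteolin (adjusted p = 0.111) and gefitinib (0.37, adjusted p = 0.554) calls. For luteolin the call was lost without every array but luteolin replicate 1, and for gefitinib without each array except either of the luteolin pair.

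The miR-125a hairpin was not called. Its passenger miR-125a-3p gave 14.4 and 12.5 in DMSO, 12.7 and 8.72 in luteolin, 11.1 and 11.5 in gefitinib, and 10.1 and 9.96 in luteolin plus gefitinib, and was not called in any of the 3 comparisons. Its arm difference lay at 0.00 (95% interval -0.78 to 0.78) for luteolin, 0.05 (-0.73 to 0.84) for gefitinib and 0.08 (-0.70 to 0.87) for both drugs. The luteolin value is the mean of unlike arrays, whose log2 5p minus 3p was 2.83 and 3.61, against 2.92 and 3.52 in DMSO. Without luteolin replicate 1 it was 0.39 and without luteolin replicate 2 it was -0.39, and the value for both drugs turned to -0.56 with the mean processed signal. Whether the arm differences of the 3 hairpins differ from one another was not tested. The fit called 2 of the 3 for luteolin, where 9.84% of all 61 were called, 1 of 3 for gefitinib (14.8% of all) and 2 of 3 for both drugs (23.0% of all), miR-99b being among them each time. With only hairpins detected on all arrays, the counts were 1, 0 and 1, the call being miR-100. The median over all 61 hairpins was above 0 as well, at 0.21, 0.27 and 0.26. The remaining 3 passengers, miR-99a-3p, miR-125b-1-3p and miR-125b-2-3p, were detected on 0 of 8 arrays, so no arm difference could be fitted for miR-99a or miR-125b.

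**Figure D5:**
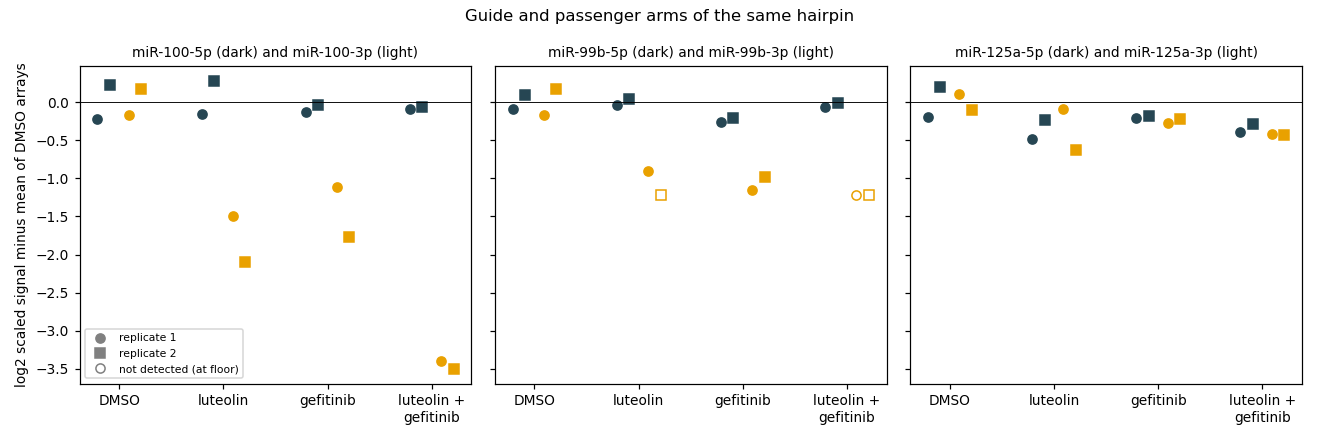
Log2 scaled signal of guide (dark) and passenger (light) arms of 3 hairpins on each array, relative to the mean of the DMSO arrays; circles are replicate 1, squares replicate 2, and open symbols mark arrays on which the arm was undetected and set to the floor. The guide of miR-100 stays within 0.28 of its DMSO mean while its passenger differs by -3.45 with both drugs on average. For miR-125a the guide lies below the passenger in luteolin replicate 1 and above it in luteolin replicate 2, each relative to its own DMSO mean.

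The let-7 guides of the same clusters were measured beside the members. let-7a-5p, which has further genes elsewhere, gave 2296 and 3660 in DMSO, 2393 and 4139 in luteolin, 3062 and 2926 in gefitinib, and 2946 and 3493 in luteolin plus gefitinib. let-7c gave 388 and 516, 454 and 622, 440 and 446, and 493 and 578 in the same order of groups, and let-7e-5p gave 185 and 234, 177 and 282, 225 and 208, and 222.9 and 297. The arrays of every drug group overlapped those of DMSO for all 3, and none was called (limma, lowest adjusted p = 0.538). The passenger let-7e-3p was detected in DMSO alone, at 2.08 and 2.46, and was at least 3.18-fold lower in each drug group by the same bound as above. It entered the fit only through its detection in DMSO, so a lower value elsewhere was partly fixed by the filter.

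As a description of likeness, the log2 signal of each guide was centred over the 8 arrays and set against that of the 360 other miRNAs detected on all arrays, by the root mean square (RMS) of the difference. The nearest were miR-10a-5p (0.0415) and miR-128 (0.0444) for miR-99a-5p, miR-107 (0.0384) and miR-148b-3p (0.0462) for miR-100-5p, and miR-148b-3p (0.0511) and miR-107 (0.0556) for miR-125b-5p. miR-99b-5p was nearest to miR-664b-3p (0.0599) and miR-106b-5p (0.0722), and miR-125a-5p to miR-27a-3p (0.0765) and miR-378i (0.0840). The median RMS over all 360 was between 0.260 and 0.299. The nearest lie under it by the way they were picked, and the points share their arrays, including the gap between the replicates of DMSO and of luteolin. Among the members themselves, miR-125b-5p was 0.0485 from miR-100-5p, its neighbour on chromosome 11, and 0.0879 from miR-99a-5p, its neighbour on chromosome 21. miR-99a-5p and miR-100-5p were 0.0600 apart, and miR-99b-5p and miR-125a-5p, on chromosome 19, were 0.190 apart.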

How the data were processed

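Total RNA was labelled with Cy3 and hybridised to 1-colour Agilent miRNA arrays. Per the file headers, the authors extracted each array on its own with Agilent Feature Extraction 10.7.3.1 (protocol miRNA_107_Sep09), so that the deposited files hold background-subtracted signal intensity on a linear scale that was not adjusted between arrays, beside flags of other kinds for detection and saturation. The total signal per miRNA sums its probes, and is 0.1 where undetected. Each array held 56610 miRNA spots, 30 per miRNA, with 0 saturated. The number of arrays limits the precision.

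Arrays were grouped by the treatment in the labels, and none was left out. Totals were scaled to the 75th percentile of 365 miRNAs detected on all arrays, raised to a floor of 0.609 and put on the log2 scale. The 480 miRNAs found on both arrays of at least 1 treatment were fitted in 1 model of 4 groups with limma 3.58.1 in R 4.3.3 (4 residual degrees of freedom, prior worth 1.66), for 9 comparisons, and called at a Benjamini-Hochberg adjusted p under 0.05. All tests are two-sided. Arm differences were fitted over 61 of 507 hairpins with both arms on the array, and probe ratios over 317 miRNAs. Alternatives changed the scaling, spot summary, background correction, filter, floor, test, replicate block and the arrays included.

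The members and lists were chosen with earlier results of these data known. The named miRNAs are the 5 guides, their cluster partners and passenger arms, arrayed miRNAs with the same seed, and the 2 nearest patterns of each guide.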

Additional observations from a re-analysis of the deposited data

How the results depend on the processing

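Scaling set the direction of small differences in the guides. With no scaling, the log2 differences from DMSO of miR-99a-5p, miR-100-5p, miR-99b-5p, miR-125b-5p and miR-125a-5p with gefitinib turned to 0.15, 0.28, 0.13, 0.27 and 0.17, and that of miR-99a-5p with luteolin to 0.082. With small-RNA control probes as the reference they turned, in the same order, to 0.17, 0.30, 0.15, 0.29 and 0.19 for gefitinib, to 0.17, 0.26, 0.30, 0.31 and 0.0060 for both drugs, and to 0.034 for miR-99a-5p with luteolin. With spike-in probes they turned to 0.29, 0.42, 0.27, 0.41 and 0.31 for gefitinib, to 0.042, 0.13, 0.17 and 0.18 for the first 4 with both drugs, and to 0.16 for miR-99a-5p with luteolin. Quantile normalization turned miR-100-5p and miR-125b-5p with gefitinib to 0.076 and 0.12, miR-125b-5p with both drugs to 0.12 and miR-99b-5p with luteolin to -0.011. With normexp and quantile normalization, miR-100-5p turned to 0.060 with gefitinib and 0.023 with both drugs, and miR-99a-5p and miR-99b-5p with luteolin to 0.024 and -0.0063. For miR-99b-5p with luteolin the mean processed signal gave -0.0003 and the series table -0.0006. The mean processed signal also turned the arm difference of miR-125a, to 0.021 with luteolin, -0.014 with gefitinib and -0.56 with both drugs. The 75th percentile over all miRNAs equals the value for an undetected miRNA on 5 arrays. With it the 5 guides turned, in the order of the first list, to 0.080, 0.21, 0.061, 0.20 and 0.10 for gefitinib and to 1.27, 1.36, 1.40, 1.41 and 1.11 for both drugs, miR-99a-5p to 0.027 with luteolin, and the luteolin effect over 8 arrays on miR-125a-5p to 0.37. miR-125a-5p with luteolin kept its sign under all 24 alternatives (-0.56 to -0.13).

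Leaving out 1 array at a time, the differences of miR-99a-5p ranged from -0.31 to 0.17 (luteolin), -0.45 to 0.017 (gefitinib) and -0.41 to 0.06 (both drugs); of miR-100-5p from -0.16 to 0.28, -0.31 to 0.13 and -0.30 to 0.14; of miR-125b-5p from -0.093 to 0.36, -0.33 to 0.13 and -0.26 to 0.19; of miR-99b-5p from -0.088 to 0.10 (luteolin) and -0.13 to 0.050 (both drugs); and of miR-125a-5p from -0.39 to 0.0038 (gefitinib). Without a change of sign, miR-125a-5p ranged from -0.56 to -0.16 with luteolin and from -0.54 to -0.14 with both drugs, and miR-99b-5p with gefitinib from -0.33 to -0.14, each smallest without DMSO replicate 2 and largest without DMSO replicate 1. The arm difference of miR-125a ranged from -0.39 to 0.39, -0.25 to 0.36 and -0.22 to 0.38.

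The number of guides called was 0 in every alternative but normexp with quantile normalization, which gave 1 for gefitinib against DMSO, 1 for both drugs against DMSO, 1 for gefitinib against luteolin and 1 for the gefitinib effect over 8 arrays. The number of hairpins with unequal arms for luteolin fell from 2 to 1 with the mean processed signal, with hairpins detected on all arrays alone and with a floor of 1, and was 0 to 2 without 1 array. For gefitinib it went from 1 to 0 under the same 3 settings and was 0 to 2 without 1 array. For both drugs it was 1 with the filter and 1 with the floor. The number of guides with unequal probes was 0 to 1 without 1 array for luteolin and for both drugs.

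With the replicate number as a block, 2 hairpins were called for gefitinib, 0 guides had unequal probes for luteolin, and 2 had for both drugs, where miR-125b-5p joined miR-125a-5p; no other call of the counts above changed. The labels do not say that a number marks a shared culture, and the correlation of the replicate differences ran from -0.135 (DMSO and gefitinib) to 0.907 (DMSO and luteolin). The cause of these changes was not tested. The 2 arrays per group limit the precision to the intervals given.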
